A study of Mus musculus with 8 samples.

Results

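The acinar digestive enzymes and regulators are a list of 35 genes that the exocrine cells of the pancreas use to make, package and secrete digestive juice. They were read here in RNA of isolated islets of Langerhans, array by array, since the islets are taken out of this exocrine tissue. A gene was found through the RefSeq accession of its probes, and where it had several probes the one with the highest mean over all arrays was taken. Of the 35 listed genes, 33 were measured, of 22911 named genes on the array, and Ctrc and Try10 were matched to no probe by accession. The list was drawn up by known roles in acinar cells, with earlier results of these data known.

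Islets came from 11-week-old male littermates, and each RNA extraction used 150 islets, taken right after isolation by collagenase injected through the bile duct. The control group was floxed for Fbln5, with no Cre named in the labels, and the βFbln5KO group carried floxed Fbln5 together with Ins1-Cre, in which the mouse insulin 1 promoter drives Cre in beta cells. By this design neither acinar cells nor the other cells of the islet are targeted. Each group had 4 biological replicates, named here control 1 to 4 and βFbln5KO 1 to 4. Whether an extraction held islets of 1 animal or of several was not given.

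All 8 samples were hybridised to 1 slide of Agilent one-colour mouse arrays and read in 1 scan. Signals are given on the log2 scale after subtraction of the array's 75th percentile, so that a difference of 1 is 2-fold, and signals of different probes are not compared as transcript levels. A probe is called well above background as marked by the scanner software, and no spot was saturated. The software marked 56.6% to 58.8% of spots well above background on control arrays and 52.6% to 56.6% on βFbln5KO arrays. Control arrays filled 1 row of the slide and βFbln5KO arrays the other, so an effect of row cannot be told apart from one of genotype. The endocrine identity of the samples was checked with Ins2 (insulin), Gcg (glucagon), Sst (somatostatin) and Ppy (pancreatic polypeptide), which were well above background on all 8 arrays. The log2 signal of Fbln5 was −1.70, −1.32, −2.05 and −1.83 on control 1 to 4 and −2.74, −2.40, −2.38 and −1.37 on βFbln5KO 1 to 4. The array labelled βFbln5KO 4 thus lay within the control range for the targeted gene, and the difference between the groups did not pass the test (log2 fold change −0.50 (SE 0.29, 95% interval −1.15 to 0.15, adjusted p 0.342 in limma)). The paper reported that islets of βFbln5KO mice kept part of their Fbln5 mRNA, and it proposed that non-beta cells of the islet express the gene too. Whether the label of this array matches its genotype was not tested.

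Acinar cells make up most of the pancreas and store digestive enzymes as inactive zymogens in granules at their apical side. Trypsinogens are activated in the gut and the trypsin so made activates the other protease zymogens, while lipases, amylase and ribonuclease are secreted in active form or need a cofactor. The programme is held by transcription factors, among them the PTF1 complex, in which Ptf1a pairs with a common basic helix-loop-helix partner and with Rbpjl and binds a bipartite site of an E-box and a TTTCCC box. Because acinar enzyme transcripts are among the most abundant of the pancreas, they are a usual readout of exocrine material in islet preparations.

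Promoter sequence was looked at as a description of the list, and a link between motifs and signals was not tested. Genes that are close copies of each other, such as the trypsinogens, are counted as separate windows. RefSeq gave 29 promoter windows, from 250 bases before to 50 after the transcription start, for 28 of the 35 genes (GRCm38.p6), with none used for Clps, Ctrc, Dmbt1, Tff2, Try10, Try5 and Zg16. Both strands were searched for the E-box CANNTG, for its form CACCTG, which reads CAGGTG on the other strand, and for TTTCCC, which reads GGGAAA there. The form CACCTG, which every count of CANNTG includes, was in 17 of 29 windows (58.6%), against 20.2% of all 32851 windows in the table. CANNTG of any form was in 24 of 29 (82.8%), against 72.3%, and TTTCCC was in 10 of 29 (34.5%), against 25.25%. A TTTCCC starting within 30 bases of CANNTG was in 5 of 29 windows (17.2%), against 5.86%, and within 30 bases of CACCTG in 3 of 29 (10.3%), against 1.03%. A match is a run of letters and not a shown binding site. These 3 windows belong to Cel, Prss1 and Cela1, and are printed since each holds a CACCTG and a TTTCCC within 30 bases of each other. Their 250 bases before the start are given 5′ to 3′ on the strand of the gene. Capitals mark every CACCTG and TTTCCC on either strand, and in Cel and Prss1 some of these matches lie outside that reach.
Cel (chr2:28563404-28563653, minus strand): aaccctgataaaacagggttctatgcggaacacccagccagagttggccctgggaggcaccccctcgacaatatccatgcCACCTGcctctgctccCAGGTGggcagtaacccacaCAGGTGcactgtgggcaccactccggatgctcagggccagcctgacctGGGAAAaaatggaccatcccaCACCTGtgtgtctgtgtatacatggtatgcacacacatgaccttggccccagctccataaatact
Prss1 (chr6:41458680-41458929, plus strand): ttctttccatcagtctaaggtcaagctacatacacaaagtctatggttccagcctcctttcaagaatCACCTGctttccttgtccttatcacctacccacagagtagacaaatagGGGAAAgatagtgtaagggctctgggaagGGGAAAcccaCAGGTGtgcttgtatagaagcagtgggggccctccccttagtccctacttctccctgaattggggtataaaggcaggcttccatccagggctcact
Cela1 (chr15:100687921-100688170, minus strand): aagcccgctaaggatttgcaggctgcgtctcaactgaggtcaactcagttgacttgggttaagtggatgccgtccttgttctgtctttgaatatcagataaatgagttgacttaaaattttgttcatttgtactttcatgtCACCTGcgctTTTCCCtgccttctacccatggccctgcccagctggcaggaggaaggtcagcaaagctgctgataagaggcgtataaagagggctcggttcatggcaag
The 3 genes differed in their signals: Cel followed the order of arrays that most of the list shared, whereas Prss1 and Cela1 did not, as given with their values.

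Acinar transcripts varied widely between preparations, and most of the genes shared an order of arrays. Over the 8 arrays the median gene of the list spanned 3.48 on the log2 scale, or 11.2-fold, and the spans ran from 0.48 (Amy2a5) to 7.14 (Serpini2). A span above 2 on the log2 scale was seen in 25 of 33 genes, against 2.10% of the 26341 probes that were well above background on every array. Control 3 had the highest signal in 32 of 33 genes, control 4 the second highest in 29 and the array labelled βFbln5KO 4 the third highest in 28. The lowest pair of arrays was βFbln5KO 2 and βFbln5KO 3 in 27 genes. Both features, which were chosen after the values were seen, held together in 26 of 33 genes and in 0.619% of the 26341 probes. The control arrays 1 and 2 and βFbln5KO 1 lay in between. Fewer acinar cells and less RNA per acinar cell cannot be told apart in such bulk RNA.

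The size of this pattern was read from the 32 genes that were well above background on all 8 arrays, as the median deviation from each gene's own mean. It was −0.19, −0.61, 1.61 and 1.15 on control 1 to 4 and −0.23, −1.43, −1.28 and 0.82 on βFbln5KO 1 to 4. Control 3 was thus 4.67-fold above control 2 within 1 genotype, and the array labelled βFbln5KO 4 was 4.75-fold above βFbln5KO 2 within the other. Between the extremes, control 3 and βFbln5KO 2, the step was 8.24-fold, whereas the group means of this profile differed by 2.03-fold. The array labelled βFbln5KO 4 exceeded both control 1 and control 2 in 30 of 33 genes. Conversely, βFbln5KO 2 and βFbln5KO 3 both lay below every control array in 28 genes, and control 3 and control 4 both lay above every βFbln5KO array in 29.

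**Figure D1:**
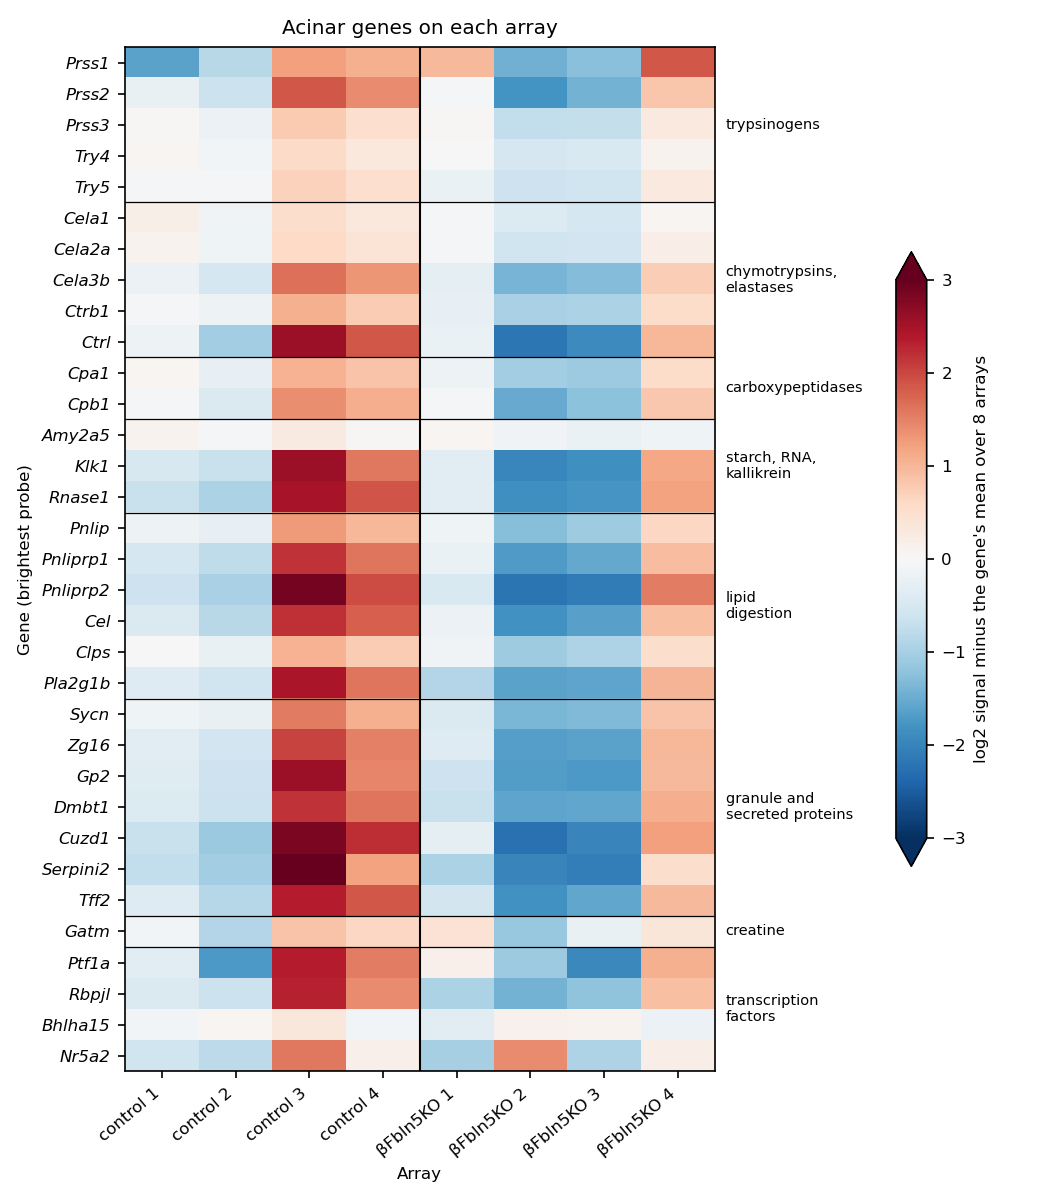
Log2 signal of the 33 measured acinar genes (rows, grouped by role) on each of the 8 arrays (columns), as the deviation from the gene's mean over all arrays. Control 3, control 4 and the array labelled βFbln5KO 4 are red and βFbln5KO 2 and 3 blue in most rows, while Bhlha15 and the brighter probe of Amy2a5 are nearly white; deviations beyond 3 take the end colours.

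Trypsinogens, the precursors of the protease that starts the activation cascade, were measured for 5 of 6 listed genes. Prss2 (chr6:41521776-41525079) had a log2 signal of 6.13, 5.70, 8.22 and 7.77 on control 1 to 4 and 6.28, 4.55, 4.93 and 7.17 on βFbln5KO 1 to 4. The groups overlapped, with the array labelled βFbln5KO 4 above control 1 and 2 and βFbln5KO 2 the lowest of all. Prss3 spanned 1.54 over the 8 arrays, Try4 1.07 and Try5 1.32, in each case with the top 3 and lowest arrays of the list. Try4 read 7.03, 6.89, 7.54 and 7.28 on control 1 to 4 and 6.95, 6.47, 6.51 and 7.08 on βFbln5KO 1 to 4, a narrow span in which the same arrays stood out. Prss1 was the exception of the family, at 1.38, 2.15, 4.22 and 4.06 on control 1 to 4 and 3.95, 1.54, 1.74 and 4.86 on βFbln5KO 1 to 4. Its highest signal was on the array labelled βFbln5KO 4 and its lowest on control 1, and βFbln5KO 1 lay above control 1 and 2. Prss1 was also the only gene of the 33 with a higher mean in βFbln5KO, by 0.07 (95% interval −1.97 to 2.11 in limma). Trypsinogens of the mouse are close copies of each other, and how far a probe reads a neighbouring copy was not tested.

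Chymotrypsin-like and elastase proteases, which cut beside aromatic or small residues, were measured for 5 of 6 listed genes. Ctrl, a chymotrypsin-like protease, read 5.06, 4.16, 7.77 and 7.08 on control 1 to 4 and 5.01, 3.04, 3.30 and 6.20 on βFbln5KO 1 to 4. Control 3 was its highest array and βFbln5KO 2 its lowest, a 26.4-fold span, while the array labelled βFbln5KO 4 lay above control 1 and 2. Cela3b, an elastase, read 7.06, 6.69, 8.88 and 8.54 on control 1 to 4 and 6.95, 5.82, 5.91 and 7.96 on βFbln5KO 1 to 4. It followed the median profile of the list more closely than any other member, with a root mean square difference of 0.078 on the log2 scale over the 8 arrays. Ctrb1, chymotrypsinogen B, spanned 2.03 and Cela2a 1.18, with the shared order. Cela1, also an elastase, read 6.67, 6.40, 7.02 and 6.82 on control 1 to 4 and 6.45, 6.08, 5.98 and 6.56 on βFbln5KO 1 to 4. Here control 1 took the third place of the array labelled βFbln5KO 4, and the groups overlapped only through that array and βFbln5KO 1 against control 2.

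The carboxypeptidases trim amino acids from the C-terminal end of peptides, Cpa1 the aromatic and aliphatic ones and Cpb1 the basic ones. Cpa1 read 7.61, 7.31, 8.59 and 8.41 on control 1 to 4 and 7.39, 6.51, 6.47 and 8.10 on βFbln5KO 1 to 4, and Cpb1 read 7.30, 6.89, 8.72 and 8.43 on control 1 to 4 and 7.27, 5.82, 6.09 and 8.14 on βFbln5KO 1 to 4. Both held the shared order, with control 3 highest, and the array labelled βFbln5KO 4 lay above control 1 and 2 in each. Cpa1 spanned 4.36-fold and Cpb1 7.48-fold over the 8 arrays.

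Amy2a5, a pancreatic amylase that digests starch, gave a different answer with each of its 2 probes. The brighter probe read 7.56, 7.43, 7.73 and 7.50 on control 1 to 4 and 7.50, 7.34, 7.25 and 7.32 on βFbln5KO 1 to 4, which left little difference between any arrays. The dimmer probe read 5.51, 4.80, 7.998 and 7.62 on control 1 to 4 and 5.75, 3.58, 3.89 and 6.68 on βFbln5KO 1 to 4. It spanned 21.5-fold in the order of the list, against 1.39-fold with the brighter probe, and its log2 fold change was −1.51, against −0.20. Both probes carry the same RefSeq accession, amylase genes lie next to near-identical copies, and which copies each probe reads was not tested. Rnase1, the secreted ribonuclease, spanned 19.6-fold and Klk1, tissue kallikrein, 22.9-fold, both with the shared order of arrays. Klk1 read 3.70, 3.52, 6.75 and 5.77 on control 1 to 4 and 3.84, 2.23, 2.34 and 5.35 on βFbln5KO 1 to 4, with control 3 highest and βFbln5KO 2 and 3 lowest.

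**Figure D2:**
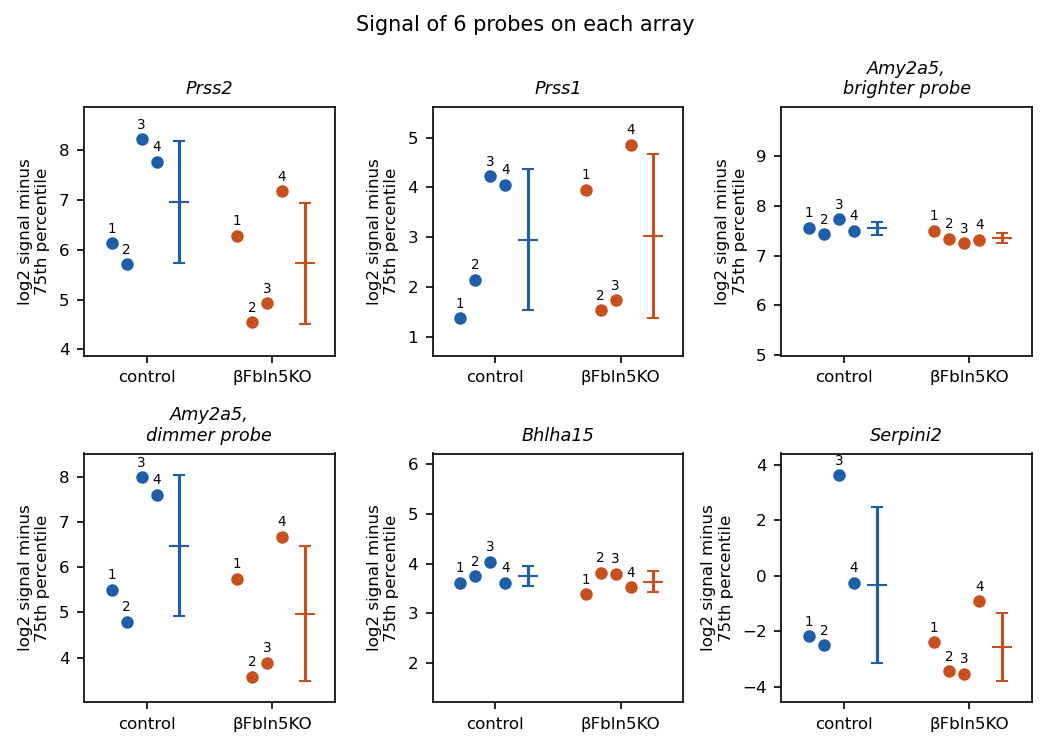
Log2 signal minus the array's 75th percentile for 6 probes, with 1 point per array marked by its replicate number and the group mean with its SD (n = 4) beside the points. The dimmer Amy2a5 probe repeats the order seen for Prss2, the brighter Amy2a5 probe and Bhlha15 stay within a narrow band, Prss1 is highest on the array labelled βFbln5KO 4 and lowest on control 1, and Serpini2 is highest on control 3.

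Lipid digestion was covered by 6 genes, and all 6 held the shared order of arrays. Pnlip, the main triglyceride lipase, read 6.27, 6.17, 7.70 and 7.41 on control 1 to 4 and 6.30, 5.16, 5.35 and 7.04 on βFbln5KO 1 to 4. Clps, the colipase that lets it work in the presence of bile salts, read 7.24, 7.03, 8.31 and 8.03 on control 1 to 4 and 7.17, 6.20, 6.35 and 7.78 on βFbln5KO 1 to 4. From the lowest to the highest array the enzyme and its cofactor spanned 5.82-fold and 4.31-fold. Cel, which splits cholesterol esters and other lipids and whose upstream sequence is printed here, read 6.05, 5.65, 8.66 and 8.27 on control 1 to 4 and 6.29, 4.65, 4.85 and 7.38 on βFbln5KO 1 to 4. Pnliprp2, a relative of pancreatic lipase that takes galactolipids, had the widest span of this group, at 1.33, 0.98, 4.80 and 3.90 on control 1 to 4 and 1.48, −0.26, −0.16 and 3.47 on βFbln5KO 1 to 4. Its highest and lowest arrays, control 3 and βFbln5KO 2, stood 33.5-fold apart. Pnliprp1, a relative with little lipase activity, spanned 14.4-fold, and Pla2g1b, the phospholipase, 16.5-fold.

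The zymogen granule and other secreted proteins that are not enzymes showed the shared order in 7 of 7 genes, with spans from 7.68-fold (Sycn) to 141-fold (Serpini2). Sycn, syncollin of the granule membrane, read 7.06, 6.97, 8.76 and 8.27 on control 1 to 4 and 6.76, 5.82, 5.86 and 8.05 on βFbln5KO 1 to 4. Gp2, the main glycoprotein of that membrane, read 4.36, 4.09, 7.28 and 6.17 on control 1 to 4 and 4.09, 3.03, 2.99 and 5.69 on βFbln5KO 1 to 4, and Zg16, a lectin-like granule protein, spanned 12.9-fold. Cuzd1, a CUB and zona pellucida-like domain protein, read −0.37, −0.82, 3.13 and 2.51 on control 1 to 4 and 0.02, −1.94, −1.68 and 1.54 on βFbln5KO 1 to 4. In these 4 genes the array labelled βFbln5KO 4 again ranked next after control 4. Serpini2, a serine protease inhibitor, read −2.17, −2.49, 3.62 and −0.24 on control 1 to 4 and −2.39, −3.43, −3.52 and −0.91 on βFbln5KO 1 to 4. Control 3 stood far above control 4, the control arrays alone spanned 6.11, and Serpini2 had the widest spread of the 33 genes. Dmbt1, a mucin-like scavenger receptor protein, spanned 13.4-fold and Tff2, a trefoil peptide, 17.8-fold.

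The 4 transcription factors split. Rbpjl, the PTF1 subunit restricted to acinar cells, read 0.34, 0.13, 3.06 and 2.18 on control 1 to 4 and −0.18, −0.65, −0.44 and 1.67 on βFbln5KO 1 to 4, with the shared order and a 13.1-fold span. Ptf1a read −4.28, −5.67, −1.60 and −2.41 on control 1 to 4 and −3.80, −5.04, −5.88 and −2.88 on βFbln5KO 1 to 4, and was well above background only on control 1, 3 and 4 and on βFbln5KO 1 and 4. Its top 3 arrays were those of the list, and the low values are near the limit of detection. Bhlha15 (Mist1), a factor that drives secretory cell architecture, read 3.62, 3.75, 4.04 and 3.61 on control 1 to 4 and 3.39, 3.82, 3.80 and 3.53 on βFbln5KO 1 to 4. Its span was 0.65 against a median of 0.45 over the 26341 probes and 3.48 over the acinar genes, with βFbln5KO 2 and 3 among its top 3 arrays. Nr5a2, a nuclear receptor that acts with the PTF1 programme, read −2.95, −3.14, −0.78 and −2.20 on control 1 to 4 and −3.35, −0.93, −3.28 and −2.16 on βFbln5KO 1 to 4. It was high on control 3 as in the list, but also on βFbln5KO 2, where most other members had their lowest signal. Gatm, the first enzyme of creatine synthesis and abundant in acinar cells, read 0.09, −0.71, 1.03 and 0.79 on control 1 to 4 and 0.61, −0.96, −0.05 and 0.54 on βFbln5KO 1 to 4 and spanned 3.99-fold, with βFbln5KO 1 among its top 3 arrays. Its second probe spanned 2.94-fold.

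A second list of 23 further genes of acinar cells was read in the same way, and 20 were measured. On the 15 well above background on all 8 arrays, the median deviation was −0.32, −0.53, 2.03 and 1.30 on control 1 to 4 and −0.36, −1.50, −1.49 and 0.89 on βFbln5KO 1 to 4, close to that of the 33 genes. Both features of the array order held in 12 of the 20. Spink1, the trypsin inhibitor, spanned 16.8-fold, Cckar, the cholecystokinin receptor that triggers secretion, 24.1-fold and Reg1 9.14-fold. Rab3d, a granule GTPase, and Gata6, a pancreatic transcription factor, spanned 0.43 and 0.64 on the log2 scale. By their brightest probe, none of the 20 passed an unadjusted p of 0.05 in limma in either direction (smallest p 0.0663, Cela3a), and 19 had a lower mean in βFbln5KO, with a median log2 fold change of −1.04. A dimmer Amy1 probe, also well above background on all 8 arrays, was lower at that threshold (log2 fold change −0.51, unadjusted p 0.0424 in limma). Dimmer probes of Gata4 and Bcat1 were higher at that threshold, but were well above background on only 0 and 1 of the 8 arrays.

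The marker lists of other cells of the preparation moved over smaller ranges at their medians. The median deviation of 8 beta cell markers ran from −0.08 to 0.17 over the 8 arrays, that of 5 alpha cell markers from −0.33 to 0.14 and that of 3 delta cell markers from −0.15 to 0.19. Ins2 lay between 8.67 and 9.13 and Gcg between 7.60 and 7.92. Ductal cells are the other exocrine cell type, and the median of 5 ductal markers moved by 0.21. Its defining marker Krt19 read −3.42, −2.82, −2.56 and −2.47 on control 1 to 4 and −3.67, −3.39, −3.07 and −2.26 on βFbln5KO 1 to 4, a 2.65-fold span. Its 3 highest arrays, the array labelled βFbln5KO 4, control 4 and control 3, were those of the acinar genes, while its lowest were βFbln5KO 1 and control 1. The summed linear signal of the 7 ductal markers, relative to the 75th percentile, was 10.4 to 13.7 over the control arrays and 11.5 to 14.6 over the βFbln5KO arrays, 5 of them cleared background on every array, and the part of ductal cells in the acinar values was not tested. Endothelial and macrophage lists spanned 0.22 and 0.34. Within the macrophage list, Lyz2 (lysozyme) spanned 17.7-fold, wider than the median acinar gene, with its highest signal on βFbln5KO 1 and its lowest on the array labelled βFbln5KO 4. The mesenchymal list, of collagens and other matrix genes, was the widest of these lists, at 1.20, with its highest value on control 2 and its lowest on control 3. The summed signal of the 33 acinar genes differed 4.72-fold between the highest and the lowest array, against 1.25-fold for the beta cell list and 2.20-fold for the mesenchymal list. The part of mesenchymal cells in the acinar values was not tested.

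**Figure D3:**
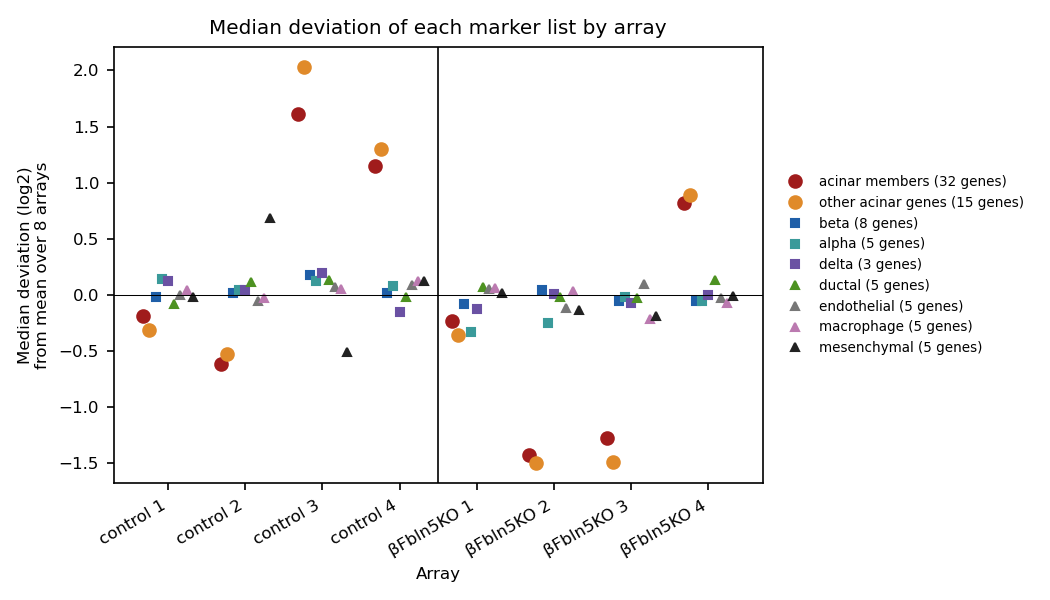
Median deviation on the log2 scale from each gene's mean over 8 arrays, for the acinar genes, the further acinar genes and 7 lists of markers of other cells, each with the number of genes well above background on every array. Both acinar lists (circles) reach above 0.8 on control 3, control 4 and the array labelled βFbln5KO 4 and below −1.2 on βFbln5KO 2 and 3, while no other list passes 0.7 in either direction.

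The genes outside the list whose deviations were most like the median profile of the acinar genes were ranked by root mean square difference over the 8 arrays, among 13520 candidate genes well above background on every array. Among the 8 nearest were, in order, Klk1b26, Klk1b21, Hsd17b13, Amy1, Klk1b5, Bmp7 and Snord17, at 0.129 to 0.267 on the log2 scale, against a median of 1.04 over all candidates and 0.488 over the acinar genes themselves. Amy1 and Klk1b5 are in the further list of acinar genes, and Klk1b26, Klk1b21 and Klk1b5 belong to the kallikrein family of Klk1, whose members are near copies. Bmp7, a secreted signal of the TGF-beta superfamily, read −3.12, −3.29, −0.75 and −2.03 on control 1 to 4 and −3.33, −4.02, −4.15 and −2.13 on βFbln5KO 1 to 4. Its array order was that of the acinar genes, although control 4 lay nearer to the array labelled βFbln5KO 4 than to control 3. Snord17, a small nucleolar RNA, and Hsd17b13, a lipid droplet enzyme, spanned 12.9-fold and 10.1-fold.

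The design asks whether loss of Fbln5 in beta cells goes with a change in islet transcripts, and for the acinar genes the 4 control arrays were compared with the 4 βFbln5KO arrays. The mean was lower in βFbln5KO in 32 of 33 genes, and the median log2 fold change was −1.13, a step of 2.19-fold, against 0.03 over all probes and −0.02 over probes well above background on all 8 arrays. On those probes 59.2% had a lower mean in βFbln5KO. These genes are not separate observations, since all were read on the same 8 arrays and 26 of the 33 held both features of the array order. No member passed an adjusted p of 0.05 in limma, a threshold that 0.0106% of all 56605 probes passed. At an unadjusted p under 0.05, 2 of 33 were lower, Cela1 and Try4, beside 3.97% of all probes and 5.41% of those well above background on all 8 arrays, a share close to theirs. In the analysis as reported none was higher, beside 20.7% of all probes and 0.839% of those well above background. The control and βFbln5KO arrays did not separate in any member, whereas every βFbln5KO array was below every control array in 3.43% of the probes well above background and above in 0.634%.

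The spread within each group exceeded the difference between the groups in all 33 genes. The median range was 2.51 on the log2 scale (5.71-fold) over the 4 control arrays and 2.42 (5.36-fold) over the 4 βFbln5KO arrays. The pooled within-group SD was 1.22 at the median, against 0.149 over the 26341 probes, and exceeded the 99th percentile of those probes, 0.891, in 21 of the 33. Groups took 26.2% of a member's sum of squares at the median, between 0.0725% (Prss1) and 48.8% (Amy2a5), against a median of 9.40% over the 26341 probes. Cela1 had a log2 fold change of −0.46 (SE 0.17, 95% interval −0.85 to −0.07, adjusted p 0.129 in limma). Try4 was at −0.43 (SE 0.19, 95% interval −0.86 to −0.01, adjusted p 0.192 in limma). Both belong to the members with the narrowest spans, and their steps of 1.38-fold and 1.35-fold were smaller than those of most members. Larger steps came with larger errors: Ctrl was at −1.63 (SE 0.93, 95% interval −3.75 to 0.50, adjusted p 0.345 in limma) and Serpini2 at −2.24 (SE 1.27, 95% interval −5.13 to 0.64, adjusted p 0.337 in limma). Without control 3 the log2 fold change was −1.04 for Ctrl and −0.93 for Serpini2. The smallest two-sided p of an exact permutation test was 0.0857 (Cela1 and Amy2a5), where 4 against 4 arrays allow 0.0286 at the least.

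By role, the median log2 fold change was −1.48 for granule and secreted proteins, −1.37 for starch, RNA and kallikrein, −1.31 for lipid digestion, −0.94 for carboxypeptidases, −0.81 for chymotrypsins and elastases, −0.56 for trypsinogens, −0.54 for transcription factors and −0.26 for Gatm. Spans differed with the brightness of the probe: the 16 genes whose probe averaged over 6 spanned 2.12 at the median and the other 17 spanned 4.16, a split chosen after the values were seen. The part of probe brightness in the order of the roles was not tested. The role medians also moved with single arrays. Without control 3 they were −0.92 for granule and secreted proteins, −0.77 for starch, RNA and kallikrein and −0.81 for lipid digestion. That of the transcription factors ran from −1.05 (without control 2) to −0.15 (without control 3), and was −0.30 without βFbln5KO 3 and −0.83 without the array labelled βFbln5KO 4. Gatm ran from −0.60 (without control 2) to 0.068 (without βFbln5KO 2), and was −0.46 without βFbln5KO 1, −0.43 without the array labelled βFbln5KO 4, −0.02 without control 3 and −0.10 without control 4. None of these roles held a member past the adjusted threshold. The 95% interval included 0 in 31 of 33 genes and a 2-fold lower level (−1) in 29, so that both lay within the error of these arrays. It reached 1 or more in 3, Prss1, Nr5a2 and Ptf1a. The intervals were narrow for Bhlha15, at −0.41 to 0.17, and for the brighter Amy2a5 probe, at −0.43 to 0.03, and wide for the lipases, from −4.05 to 0.80 for Pnliprp2.

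**Figure D4:**
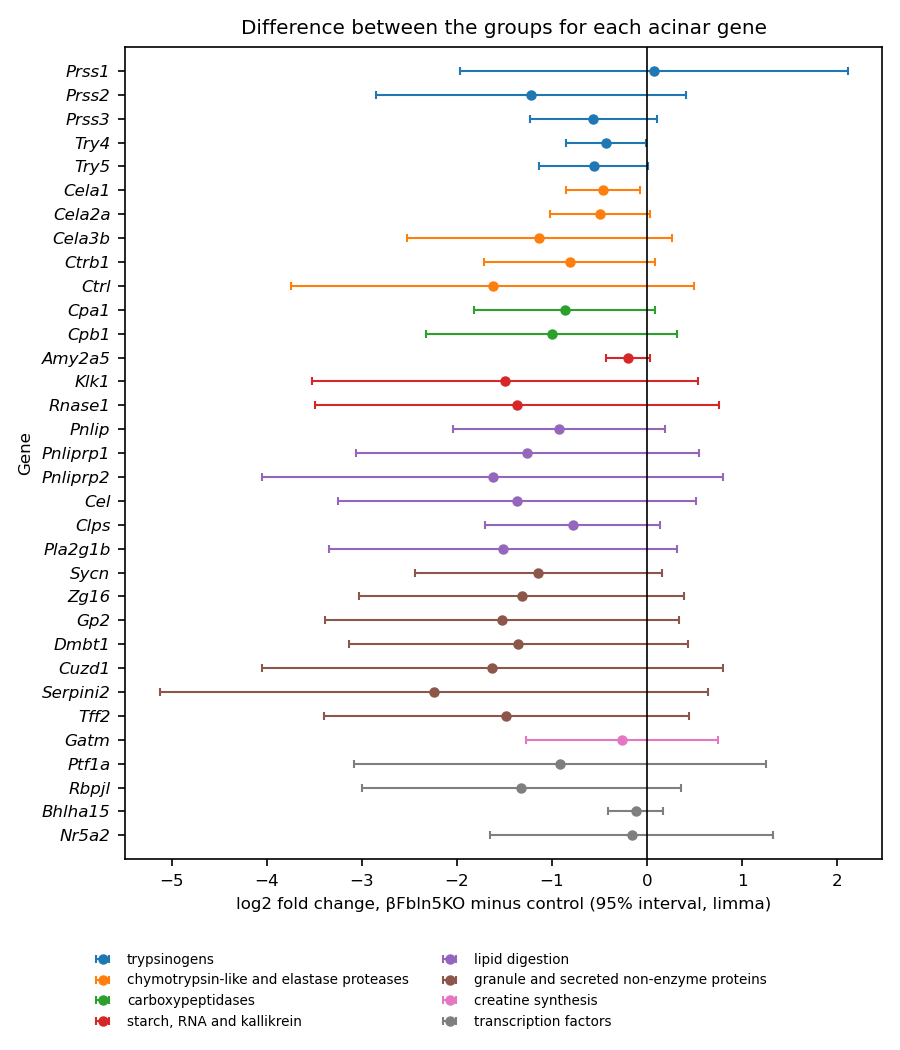
Log2 fold change of each acinar gene, βFbln5KO minus control, with its 95% interval from limma (4 against 4 arrays), coloured by role. Points lie below 0 for 32 of 33 genes, and the interval includes 0 in 31, all but Cela1 and Try4.

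The outcome of this comparison changed with single arrays. Without the array labelled βFbln5KO 4, whose Fbln5 signal lay in the control range, 22 of 33 members passed an unadjusted p of 0.05 in limma, all lower in βFbln5KO, and the median log2 fold change was −1.56. Among the 26341 probes that cleared background on every array, 3.58% passed in that direction in the same comparison. Without control 2 the count was 16, with a median of −1.50, beside 7.02% of those probes. It was 3 without control 1 (4.09% of the probes) and 2 without βFbln5KO 1 (4.12%). No member passed without βFbln5KO 2 (5.14% of the probes), βFbln5KO 3 (5.11%), control 3 (4.86%) or control 4 (4.15%), and the median lay between −0.75 (without control 3) and −0.88. In none of the 8 reduced comparisons was a member higher at that threshold, and none passed the adjusted threshold. Sycn had the smallest p without the array labelled βFbln5KO 4, at 0.0129 in limma, with a log2 fold change of −1.62.

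**Figure D5:**
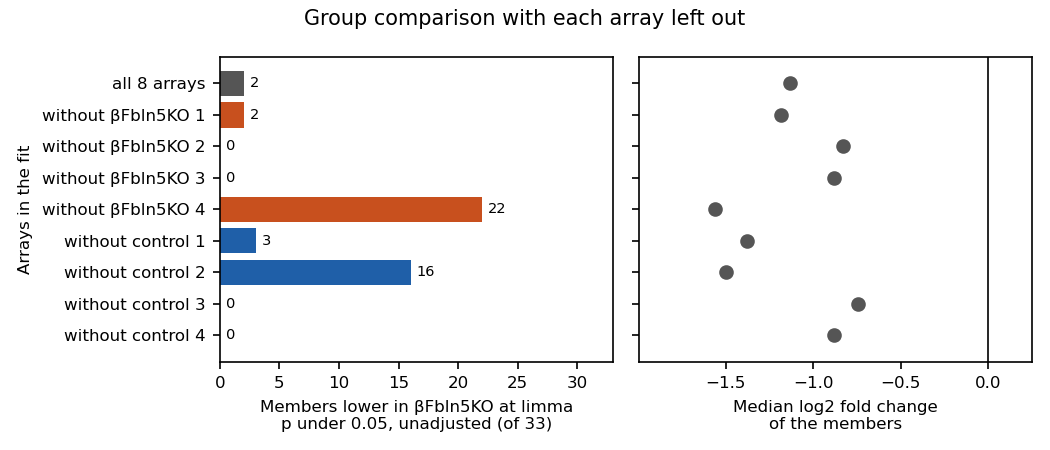
Group comparison of the 33 acinar genes with all 8 arrays and with each array left out: number of genes that were lower in βFbln5KO and passed an unadjusted p of 0.05 in limma (left) and median log2 fold change (right). The count runs from 0 to 22 and the median from −1.56 to −0.75.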

How the data were processed

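Islet RNA of 4 control and 4 βFbln5KO samples was labelled with Cy3 and hybridised to SurePrint mouse arrays. The authors deposited, per array, the processed signal intensity of Feature Extraction 11.0.1.1 (background subtracted, spatially detrended, default parameters) with the software's spot flags. The authors also deposited a table in which each intensity is a ratio to 1 number per array (checked for 35553 probes, 100% of values within 0.01%).

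Of 62976 spots, 59305 were no controls. Their log2 intensities were centred on the array's 75th percentile, outlier-marked values were dropped (0.356% of all, none of a member), and spots of 1 probe were averaged to 56605 probes, of which 32994 were named through RefSeq accessions (GRCm38.p6). Groups were compared over all probes with limma 3.58.1 (lmFit, eBayes with trend) in R 4.3.3, with Benjamini-Hochberg adjustment, and single values by exact two-sided permutation tests. Precision is limited by the 4 arrays per group, and p-values measure the spread between them.

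The text names all members, further acinar genes as examples of their list, defining markers, those of the 8 genes nearest to the members' profile that are reported here (1 is not), and Fbln5. Examples and array orders were picked after their values were seen, and members and lists were chosen with earlier results of these data known. Alternatives were normexp (offset 50), quantile normalization, keeping only probes detected on 4 or more arrays, a floor shared by all arrays, eBayes without trend, keeping outlier-marked spots, the deposited table, a mean over the probes of a gene, the Student test of the methods, a replicate block, and leaving out single arrays. Python 3.11.15, pandas 2.3.3, scipy 1.17.1 and matplotlib 3.10.9 were used.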

Additional observations from a re-analysis of the deposited data

How the results depend on the processing

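At an unadjusted p of 0.05 the count of members lower in βFbln5KO was 2 in the analysis as reported and 6 with normexp. It was 5 with the filter on dim probes and with the deposited table, which held only 27 members and 16 further acinar genes. It was 1 with quantile normalization, with a common floor and with eBayes without trend, and 0 with the methods' t-test. With the replicate block it was 13, and the further acinar genes then held 4 and, with normexp, 1. Among probes that cleared background on every array, 5.6% passed in that direction with the replicate block and 4.65% to 5.97% over these settings. Same-numbered arrays did not all deviate together (correlations of 0.20, 0.30, −0.22 and −0.02 over 26341 probes), so the numbers were not taken to pair the samples. Same-numbered arrays also lay in the same column of the slide, so the replicate block cannot be told apart from one of columns. With 1 array left out, the counts ran from 0 to 22 for the members and from 0 to 11 for the further acinar genes. No member was higher, and none passed the adjusted threshold, in these settings. The median log2 fold change lay between −1.56 and −0.75. Over the 10 settings that kept all arrays, 298 of 324 member values kept their direction and side of the threshold, 21 passed it, 5 lost it and 0 changed direction. With 1 array left out, Prss1 ran from −0.54 to 0.57, Nr5a2 from −0.66 to 0.33 and Gatm from −0.60 to 0.068, which takes their direction both ways, and the cause was not tested. Ptf1a is limited by its signal over background, which 3 of 8 arrays did not pass.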
